A study of Mus musculus with 24 samples.

Results

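The expression of 10 genes of the inflammasome, pyroptosis and necroptosis pathways was examined in whole livers of mice with diet-induced steatohepatitis. The genes were Nlrp3, Pycard, Casp1, Casp4, Casp8, Gsdmd, Gsdme, Ripk1, Ripk3 and Mlkl, chosen by symbol, and each was found as 1 row among the 56205 gene rows of the count table. Poly(A) RNA from 24 C57BL/6J livers had been sequenced, 12 from mice on a methionine-choline deficient (MCD) diet and 12 from mice on its control diet, after 20 weeks. Males and females were on each diet, but the labels do not give the sex of any single library, nor a litter, cage or batch, and the age at the start of the MCD diet is not given in the sources used here. The study's methods describe the MCD diet as a formulation rich in fat, and elsewhere the study speaks of a choline-deficient, amino acid-defined model. Diets short of choline and methionine limit the export of fat from hepatocytes and are widely used to produce steatohepatitis with fibrosis.

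Inflammasomes are protein platforms that a cell assembles when it senses infection or damage. A sensor such as NLRP3 recruits the adaptor ASC, the product of Pycard, which in turn gathers and activates caspase-1. Caspase-1 matures interleukin-1β and interleukin-18 and cleaves gasdermin D, whose fragment opens pores in the plasma membrane and kills the cell by pyroptosis, and mouse caspase-4, long called caspase-11, cleaves gasdermin D in response to lipopolysaccharide in the cytosol. Necroptosis is a separate lytic death in which RIPK1 and RIPK3 assemble and RIPK3 phosphorylates the membrane-damaging pseudokinase MLKL, while active caspase-8 holds this route back. In the liver, macrophages express the inflammasome genes most strongly, and healthy hepatocytes are known for little or no RIPK3. These activities are controlled by cleavage, phosphorylation and assembly, none of which is measured by RNA abundance.

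RefSeq promoter entries on GRCm38.p6 were matched for 9 of the 10 genes, giving 12 entries. The 250 bases before the start are shown for Pycard, Casp1 and Casp4, the 3 genes whose libraries did not overlap between diets, and for the entry of Nlrp3, the sensor, that held a motif. All are written 5′ to 3′ on the strand of the gene, in lower case, with motif matches in capitals. The Pycard window lies at chr7:127993868-127994117 on the minus strand. On the plus strand, the Casp1 window lies at chr9:5298267-5298516, the first Casp4 window at chr9:5308599-5308848 and the second Nlrp3 window at chr11:59541319-59541568.
Pycard: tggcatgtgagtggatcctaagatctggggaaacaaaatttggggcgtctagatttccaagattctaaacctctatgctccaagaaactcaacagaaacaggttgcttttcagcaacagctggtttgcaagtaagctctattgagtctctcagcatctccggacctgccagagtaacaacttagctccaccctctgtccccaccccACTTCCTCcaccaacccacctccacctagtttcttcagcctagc
Casp1: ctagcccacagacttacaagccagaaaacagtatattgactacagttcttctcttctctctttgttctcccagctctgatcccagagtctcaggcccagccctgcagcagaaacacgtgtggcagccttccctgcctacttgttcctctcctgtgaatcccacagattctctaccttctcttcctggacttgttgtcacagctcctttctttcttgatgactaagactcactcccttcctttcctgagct
Casp4: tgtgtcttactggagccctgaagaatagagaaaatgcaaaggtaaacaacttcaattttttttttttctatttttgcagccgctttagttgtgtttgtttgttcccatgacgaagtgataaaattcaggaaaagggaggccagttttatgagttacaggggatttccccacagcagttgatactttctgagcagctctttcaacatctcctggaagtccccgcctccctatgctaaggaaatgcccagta
Nlrp3: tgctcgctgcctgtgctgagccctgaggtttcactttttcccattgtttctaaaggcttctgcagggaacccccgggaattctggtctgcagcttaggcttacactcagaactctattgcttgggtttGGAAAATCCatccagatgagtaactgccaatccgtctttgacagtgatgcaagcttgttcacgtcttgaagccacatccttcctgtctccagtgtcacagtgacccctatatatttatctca

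Both strands were searched for 5 short motifs: an ISRE-like GAAANNGAA, a GAS-like TTCNNNGAA, an NF-kB-like GGANTTTCC, the AP-1 motif TGACTCA and a PU.1-like GAGGAAGT. Over 32851 promoter windows of the same length, these were present in 7.13%, 7.02%, 1.07%, 4.46% and 2.44%, respectively. The Pycard window held the PU.1-like motif on the opposite strand, 44 to 37 bases before the start. The second Nlrp3 window held the NF-kB-like motif on the opposite strand, 122 to 114 bases before the start. The second Ripk1 entry held the GAS-like motif at 108 to 100 and again at 11 to 3 bases before its start. The other 9 entries, those of Casp1 and Casp4 included, held none of the 5 motifs as spelled here, and other forms of these motifs were not searched. The start of the Mlkl entry matched no start of an annotated transcript, so its window may not lie just before the gene. These are matches of letters only, and binding was not measured.

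Total counts per library were 16793207 to 24915175 on the control diet and 16388650 to 24577848 on the MCD diet. Control replicate 12 stood apart from the other control libraries: its median Spearman correlation with them was 0.926, against 0.961 to 0.978 for the other 11, and its TMM scaling factor was the lowest at 0.642. Results that this library changed are therefore also given without it. TMM factors were 0.642 to 0.973 in control and 1.07 to 1.26 in MCD livers, so the choice of scaling moved every fold change. Scaling by total counts alone moved the median log2 fold change of all genes by 0.37, from −0.10 to 0.27. Hepatocyte genes were abundant throughout, with albumin (Alb) at 79840 ± 18360 CPM (counts scaled by effective library size) in control and 51880 ± 6845 CPM in MCD livers (mean ± SD, n = 12 each). Of 14109 genes tested, 2712 (19.2%) were higher and 2688 (19.1%) lower in MCD livers, with both limits set as an FDR of at most 0.01 and a log2 fold change beyond 0.5 in either direction (edgeR quasi-likelihood test, Benjamini-Hochberg adjusted).

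By the same criteria, 5 of the 10 genes rose in MCD livers, namely Pycard, Casp4, Casp1, Mlkl and Ripk3, against a background of 19.2% of all tested genes. None fell, against a background of 19.1%. Nlrp3, Casp8, Gsdmd, Gsdme and Ripk1 did not pass both limits. All 10 genes passed the filter on low counts, and their median log2 fold change was 0.60 against −0.10 for all tested genes. For Pycard, Casp1 and Casp4, every MCD library lay above every control library, which held for 9.5% of tested genes. Without control replicate 12, 6 genes rose, Nlrp3 being the one added. The same 6 rose with RLE or upper-quartile factors, DESeq2, limma-voom and a covariate for sex-linked expression. With total counts alone 7 rose, Gsdmd being added too, beside 4539 of the 14109 tested genes.

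**Figure D1:**
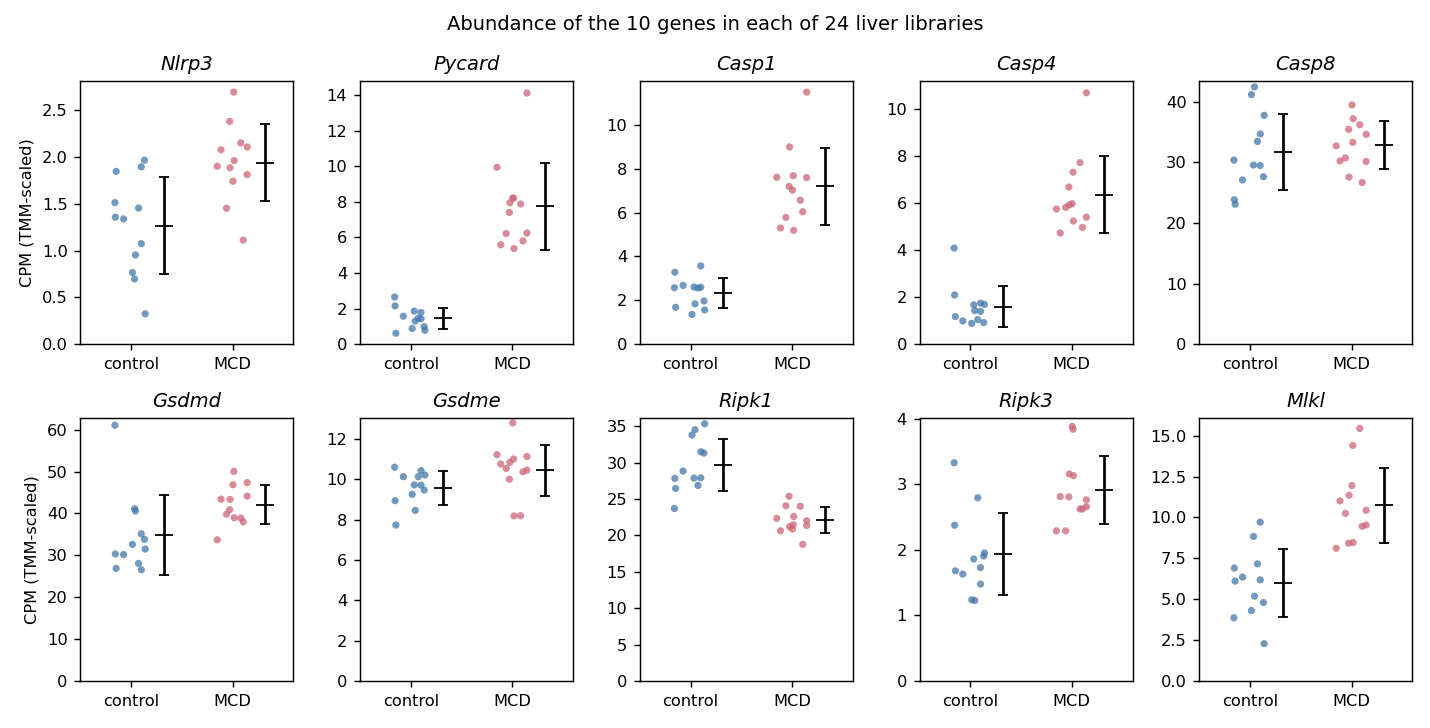
CPM on the TMM scale (vertical axes, from 0) of each gene in the 12 control (blue) and 12 MCD (red) livers, 1 point per library, with mean ± SD as black bars. The libraries of the 2 diets do not overlap for Pycard, Casp1 and Casp4 and overlap for the other 7 genes, and single control points stand high for Casp4 (4.09 CPM) and Gsdmd (61.1 CPM), both from control replicate 12.

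Nlrp3, the sensor (ENSMUSG00000032691, chr11:59541568-59566956, plus strand, GRCm38), was scarce in both groups. Control livers ranged from 0.325 CPM through a median of 1.35 to 1.97 CPM, and MCD livers from 1.11 through 1.93 to 2.7 CPM. The groups overlapped, with 5 MCD libraries above every control library. The log2 fold change was 0.62 (SE 0.20, 95% CI 0.19 to 1.04), and its FDR of 0.0109 by edgeR lay just outside the limit. Only 5 to 34 counts supported the control values and 28 to 73 the MCD values, and the call turned on small choices: it passed with RLE factors (FDR = 0.00827), DESeq2 (FDR = 0.00277) and limma-voom (FDR = 0.00549). It also passed when any 1 of control replicates 3, 5, 6 and 12 or MCD replicates 5 and 7 was left out, with edgeR FDRs between 0.00507 and 0.00806.

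Pycard, which encodes the adaptor ASC (ENSMUSG00000030793, chr7:127989708-127993867, minus strand), had the largest fold change of the 10 genes. Its control values were 0.616 CPM at the lowest, 1.45 at the median and 2.65 at the highest, and its MCD values 5.38, 7.64 and 14.1 CPM. The lowest MCD library was about double the highest control library, and MCD replicate 2 was the highest of all. The mean was 5.32-fold higher, at 7.74 ± 2.42 against 1.46 ± 0.598 CPM (SD, n = 12), a log2 fold change of 2.41 (SE 0.20, FDR from edgeR = 1.542e-10). No 51-base stretch of its exons occurred in another gene on the same strand, but 11.6% occurred on the opposite strand, in Gm45205 or Mvp. Gm45205, whose exons overlap Pycard, held 17 counts over all control and 80 over all MCD libraries, and whether counting of the mouse libraries used the strand is not given in the sources used here.

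Casp1, the inflammasome protease (ENSMUSG00000025888, chr9:5298517-5307265, plus strand), and Casp4, the protease that senses lipopolysaccharide (ENSMUSG00000033538, chr9:5308828-5336783, plus strand), are neighbours on chromosome 9. Casp1 ranged from 1.36 through 2.57 to 3.57 CPM in control and from 5.19 through 7.11 to 11.5 CPM in MCD livers. The groups were apart, MCD replicate 2 again being the highest, and the log2 fold change was 1.61 (SE 0.15, FDR from edgeR = 1.691e-09). Casp4 ranged from 0.884 through 1.41 to 4.09 CPM in control and from 4.73 through 5.87 to 10.7 CPM in MCD livers. Its groups were also apart, although control replicate 12, at 4.09 CPM, came close to the lowest MCD library, and the next control library was at 2.09 CPM. The log2 fold change of Casp4 was 2.0 (SE 0.20, FDR from edgeR = 4.109e-09) with all libraries and 2.24 without control replicate 12. The next caspase gene on the same strand, Casp12 (chr9:5345430-5373032), which is one of the pathway genes outside the 10, rose as well, from 2.06 ± 0.712 to 13.3 ± 3.15 CPM (SD, n = 12), a log2 fold change of 2.67 (SE 0.17, FDR from edgeR = 1.638e-12). No 51-base stretch of the exons of Casp1 or Casp4 occurred in another gene on the same strand.

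Casp8, the apoptotic initiator that also restrains necroptosis (ENSMUSG00000026029, chr1:58795374-58847503, plus strand), was among the most abundant of the 10 genes. It ranged from 23.1 through 29.9 to 42.4 CPM in control and from 26.7 through 33.0 to 39.4 CPM in MCD livers. Every MCD value lay within the control range. The log2 fold change was 0.05 (95% CI −0.14 to 0.25, FDR from edgeR = 0.655), so a difference larger than 0.25 either way was outside the interval on this scale. With total counts alone the value was 0.42 (FDR from edgeR = 0.0003004), above that interval and past the FDR limit but still within the fold limit.

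Of the pore-forming executioners, Gsdmd (ENSMUSG00000022575, chr15:75862327-75867408, plus strand) encodes the gasdermin cut by caspase-1 and caspase-4, and Gsdme (ENSMUSG00000029821, chr6:50188888-50263862, minus strand) the gasdermin cut by caspase-3. Gsdmd ranged from 26.6 through 32.1 to 61.1 CPM in control and from 33.7 through 42.1 to 50.04 CPM in MCD livers. The highest value of all came from control replicate 12, and 7 control libraries lay below every MCD library. Its log2 fold change was 0.28 (SE 0.11, FDR from edgeR = 0.029), 0.41 without control replicate 12 (FDR from edgeR = 5.072e-05, within the fold limit) and 0.67 with total counts alone (FDR from edgeR = 6.301e-08, past both limits). Gsdme ranged from 7.73 through 9.72 to 10.6 CPM in control and from 8.18 through 10.7 to 12.8 CPM in MCD livers. It varied least among control livers, with a coefficient of variation of 8.93%, and its log2 fold change was 0.13 (95% CI −0.02 to 0.28, FDR from edgeR = 0.131). With total counts alone the log2 fold change of Gsdme was 0.49 (FDR from edgeR = 1.692e-05), above that interval and past the FDR limit but within the fold limit.

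The necroptosis kinases differed from each other. Ripk1 (ENSMUSG00000021408, chr13:34002363-34037147, plus strand) ranged from 23.7 through 28.4 to 35.3 CPM in control and from 18.8 through 21.7 to 25.4 CPM in MCD livers. In 9 MCD libraries it was below every control library, the lowest control value being that of control replicate 12. The log2 fold change was −0.43 (SE 0.07, 95% CI −0.57 to −0.29), whose FDR of 4.432e-06 by edgeR passed but whose size lay within the fold limit, and it was −0.07 with total counts alone (FDR from edgeR = 0.531). Part of Ripk1 is shared with its neighbours: 5.53% of its 51-base stretches occurred in Gm17084 on the same strand and 2.32% in Serpinb6a on the opposite strand, and Serpinb6a rose from 16.6 ± 5.07 to 62.7 ± 7.56 CPM (SD, n = 12).

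Ripk3 (ENSMUSG00000022221, chr14:55784995-55788865, minus strand) was much scarcer. It ranged from 1.23 through 1.80 to 3.33 CPM in control and from 2.29 through 2.79 to 3.88 CPM in MCD livers. The groups overlapped, but 9 control libraries lay below every MCD library, and the highest control value was that of control replicate 12. The log2 fold change was 0.59 (SE 0.15, FDR from edgeR = 0.00137), 0.72 without that library and 0.96 with total counts alone. Mlkl, the executioner of necroptosis (ENSMUSG00000012519, chr8:111311797-111338177, minus strand), ranged from 2.28 through 6.14 to 9.71 CPM in control and from 8.12 through 10.3 to 15.4 CPM in MCD livers. Of its MCD libraries, 7 lay above every control library, and 10 control libraries lay below every MCD library. The log2 fold change was 0.84 (SE 0.17, FDR from edgeR = 9.052e-05).

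**Figure D2:**
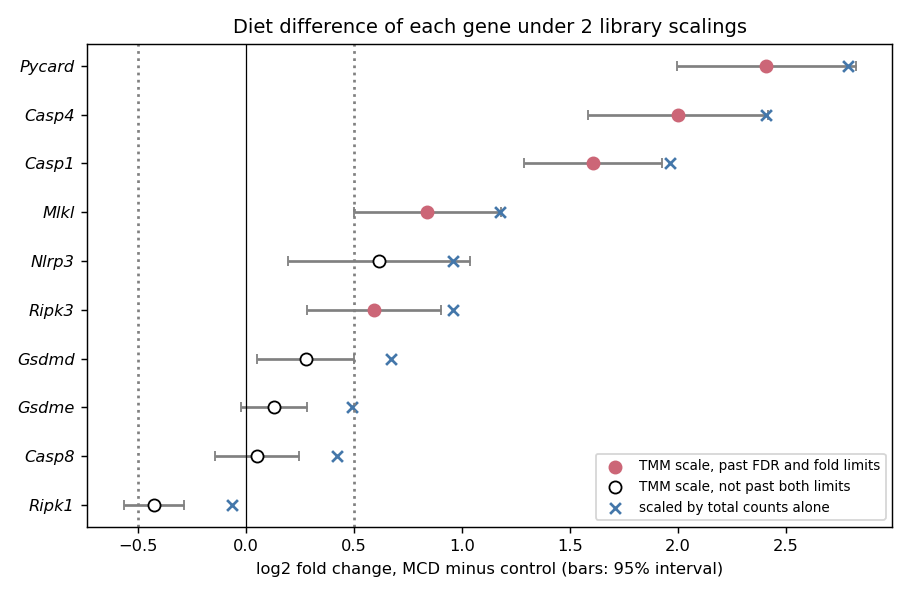
Log2 fold change of each gene, MCD minus control (horizontal axis), with 95% intervals from edgeR on the TMM scale (circles, filled where past both limits) and the estimate with total counts alone (crosses). Dotted lines mark the fold limit of 0.5, and the crosses lie to the right of the circles for all 10 genes, from 2.79 for Pycard down to −0.07 for Ripk1.

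Levels of different genes were compared as CPM per kilobase of annotated exon. In control livers the order ran from Gsdmd at 14.7 ± 4.01 and Casp8 at 10.96 ± 2.18 down through Ripk1 at 3.55 ± 0.432, Mlkl at 2.59 ± 0.903 and Casp1 at 1.57 ± 0.457 CPM per kb (SD, n = 12). Ripk3 at 0.844 ± 0.272, Gsdme at 0.751 ± 0.067, Casp4 at 0.430 ± 0.235, Pycard at 0.383 ± 0.157 and Nlrp3 at 0.312 ± 0.127 CPM per kb followed. Ranges of mean ± SD overlapped between neighbours for Gsdmd and Casp8, for Ripk1, Mlkl and Casp1 in turn, for Ripk3 and Gsdme, and for Casp4, Pycard and Nlrp3 in turn. In MCD livers Gsdmd at 17.7 ± 1.95 and Casp8 at 11.4 ± 1.35 CPM per kb still led. Casp1 came next at 4.81 ± 1.17, with Mlkl at 4.66 ± 0.999, Ripk1 at 2.64 ± 0.214, Pycard at 2.04 ± 0.638 and Casp4 at 1.71 ± 0.441 CPM per kb. Ripk3 followed at 1.27 ± 0.227, Gsdme at 0.821 ± 0.0992 and Nlrp3 at 0.479 ± 0.101 CPM per kb. In this order the ranges of Casp1 and Mlkl, and of Ripk1, Pycard, Casp4 and Ripk3 in turn, overlapped. These ranges show the spread between livers, and differences within a library were not tested here. The length used was that of all annotated exons together, which lowers the level of a gene with long untranslated exons that are rarely used.

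Ratios between a pair of these genes within a library do not depend on library scaling, and 4 were compared with two-sided permutation tests, adjusted over the 4. The log2 ratio of Ripk3 to Ripk1 was −3.97 ± 0.566 in control and −2.93 ± 0.298 in MCD livers (SD, n = 12), a rise of 1.04 (permutation p = 4e-05, adjusted p = 0.00016). The log2 ratio of Mlkl to Casp8, the executioner against the protease that restrains it, was −2.47 ± 0.731 and −1.63 ± 0.320, a rise of 0.84 (permutation p = 0.00066, adjusted p = 0.00132). Both rises passed with any single library left out. The log2 ratio of Casp4 to Casp1 rose by 0.45, from −0.63 ± 0.605 to −0.18 ± 0.234 (permutation p = 0.0256, adjusted p = 0.0342). This difference did not pass when any 1 of control replicates 2, 5, 6 and 8 or MCD replicates 5, 9 and 11 was left out, with permutation-based adjusted p between 0.0508 and 0.0639. Without control replicate 12, whose ratio of 0.66 was the highest of all libraries, the rise was 0.57 (permutation, adjusted p = 0.00159). The log2 ratio of Gsdme to Gsdmd was −1.83 ± 0.331 in control and −2.01 ± 0.186 in MCD livers, a difference of −0.18 that did not pass (permutation p = 0.11, adjusted p = 0.11). Without control replicate 12, whose ratio of −2.52 was the lowest of all libraries, the difference was −0.25 (permutation, adjusted p = 0.0165).

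**Figure D3:**
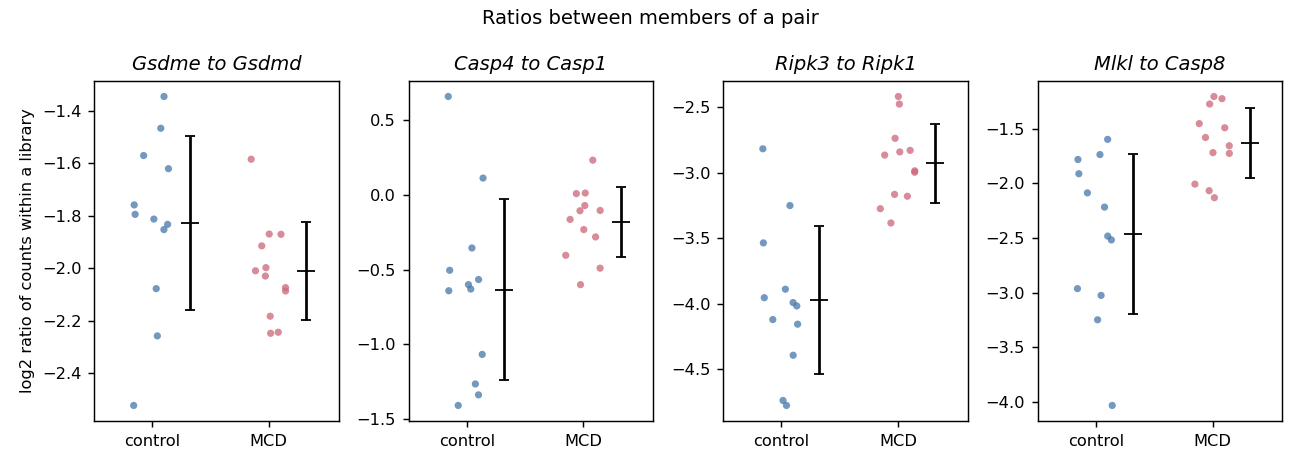
Log2 ratio of counts between the genes of a pair (vertical axes) in each of 12 control (blue) and 12 MCD (red) libraries, with mean ± SD as black bars. MCD libraries sit higher for Ripk3 to Ripk1 (difference 1.04) and for Mlkl to Casp8 (0.84), with overlap in every panel.

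Among 89 other genes of these pathways in 9 lists, 74 were tested, of which 24 rose, 5 fell and 45 did not pass both limits, where 19.2% of all tested genes rose and 19.1% fell. Their median log2 fold change was 0.31. Of 17 tested inflammasome sensors and triggers, 8 rose and 1 fell. Panx1, the channel that releases ATP, rose from 1.05 ± 0.410 to 5.13 ± 1.46 CPM (log2 fold change 2.27, SE 0.22), and the ATP receptor P2rx7, an upstream trigger of NLRP3, from 3.03 ± 0.863 to 6.30 ± 0.992 CPM (1.05, SE 0.14). For both, every MCD library exceeded every control library. The DNA sensor Aim2 rose by a log2 fold change of 1.47 (SE 0.20), Nlrc4, which answers bacterial flagellin, by 1.08 (SE 0.21) and Txnip, a binding partner of NLRP3, by 0.54 (SE 0.13). Nlrp6, by contrast, fell by 1.17 on the log2 scale (SE 0.16), from 235 ± 81.2 to 104 ± 18.4 CPM. The median of this list was 0.62.

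Of the 4 cytokines that these pathways mature or release, 3 did not pass. Il1b was at 1.75 ± 0.774 CPM in control and 2.33 ± 0.676 CPM in MCD livers (log2 fold change 0.42, SE 0.22, FDR from edgeR = 0.106). Il18, at 7.27 ± 2.01 and 5.76 ± 0.621 CPM, had a log2 fold change of −0.33 (SE 0.13, FDR from edgeR = 0.0252), and Il1a one of −0.26 (SE 0.15, FDR from edgeR = 0.14). Il33, an alarmin released from dying cells, was the one that rose, by a log2 fold change of 0.63 (SE 0.18, FDR from edgeR = 0.00354). The list's median was 0.08. Of the 3 tested brakes on these cytokines, whose median was 0.38, Il1rn, the interleukin-1 receptor antagonist, rose from 7.26 ± 2.92 to 23.9 ± 4.67 CPM (log2 fold change 1.72, SE 0.17, FDR from edgeR = 2.268e-09), with no overlap between diets, while Il18bp (0.38, SE 0.11) and Sigirr (−0.09, SE 0.13) did not pass. Of the other gasdermins and membrane rupture genes, only Ninj1 could be tested, at 157 ± 64.6 and 174 ± 11.8 CPM (log2 fold change 0.15, SE 0.14, FDR from edgeR = 0.354). Gsdma, Gsdma2, Gsdma3, Gsdmc, Gsdmc2 and Gsdmc3 had 0 counts in all 24 libraries, where 3 counts correspond to 0.109 to 0.227 CPM depending on the library.

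Among the other caspases, 1 of 6 rose and 2 fell, with a median of −0.28. Casp12 is described above. Casp9, the initiator of the mitochondrial route, fell by 0.68 on the log2 scale (SE 0.11). Of 8 death receptors and ligands, with a median of 0.36, 3 rose: the ligand Tnf by 2.79 (SE 0.25), from 0.263 ± 0.153 to 1.86 ± 0.555 CPM, the lipopolysaccharide receptor Tlr4 by 0.89 (SE 0.19) and the TNF receptor Tnfrsf1b by 0.68 (SE 0.10). Of 10 necrosome and complex II partners, with a median of −0.18, 2 rose, namely Zbp1, a nucleic acid sensor that binds RIPK3, by 1.56 (SE 0.20) and the kinase Ikbke by 0.84 (SE 0.11). That share was close to the 19.2% of all tested genes that rose.

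Of 13 brakes on caspase-8 and RIPK1, with a median of −0.03, 2 rose and 2 fell, neither share above that of all tested genes (19.2% and 19.1%). Tnfaip3, which encodes the ubiquitin editor A20, rose from 5.73 ± 1.598 to 17.3 ± 2.29 CPM (log2 fold change 1.59, SE 0.13), and its partner Tnip1 from 15.98 ± 3.74 to 39.7 ± 7.37 CPM (1.31, SE 0.12). Both were without overlap between diets. Cflar, which encodes the caspase-8 regulator cFLIP, fell by 0.87 on the log2 scale (SE 0.10), from 38.8 ± 7.66 to 21.2 ± 1.80 CPM, and Xiap, an inhibitor of caspases, by 0.85 (SE 0.17). Of 12 mitochondrial apoptosis genes, 6 rose and none fell, with a median of 0.46. They included Bcl2 (1.21, SE 0.23) and Bcl2l1 (0.62, SE 0.08), which inhibit apoptosis, and Pmaip1 (1.003, SE 0.31), Apaf1 (0.99, SE 0.16), Bax (0.73, SE 0.11) and Bcl2l11 (0.53, SE 0.16), which promote it. With total counts alone, 40 pathway genes rose and 2 fell, Nlrp6 and Cflar, beside 4539 and 848 of all 14109 tested genes. The medians of the other caspases (0.08), the necrosome partners (0.17) and the brakes on caspase-8 and RIPK1 (0.31) then turned positive. The median of all tested genes also moved, to 0.27, and the first 2 of these medians stayed below it. Exons of Txnip, P2rx7, Bax, Bcl2, Ikbke, Casp9, Il1a, Il1b and Il18bp overlap those of other genes, so their counts are uncertain to that extent.

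**Figure D4:**
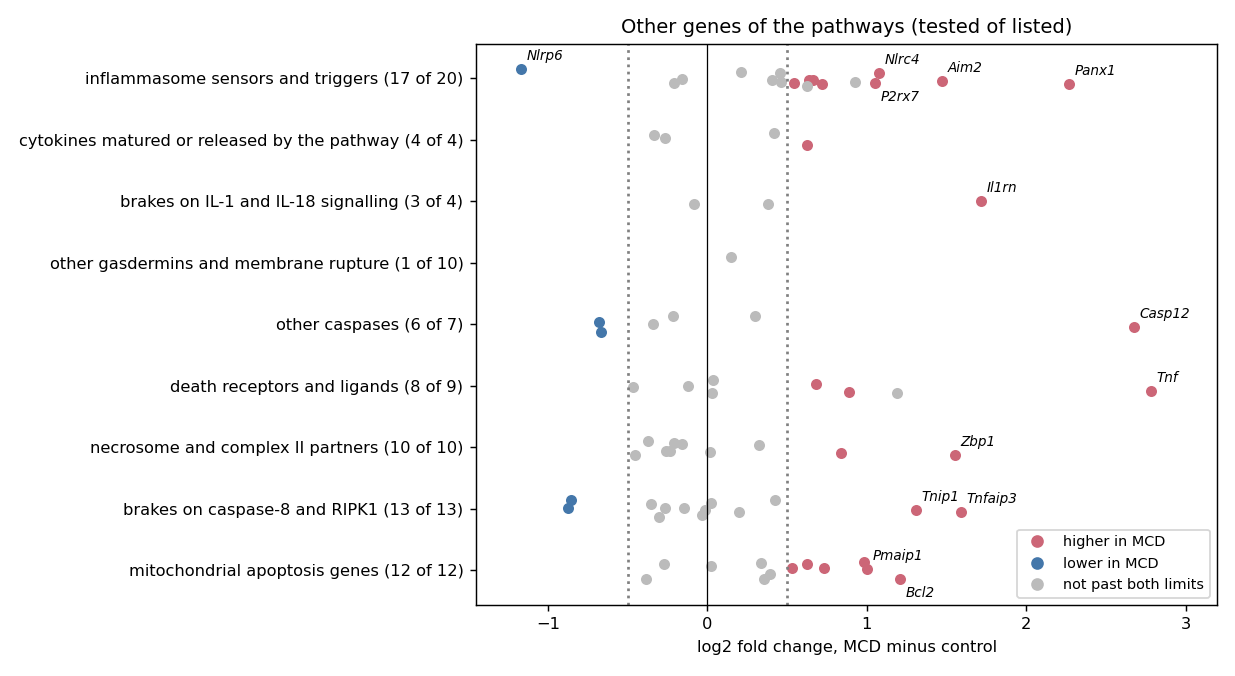
Log2 fold change, MCD minus control (horizontal axis), of the 74 tested genes in the 9 pathway lists (rows, with the number tested of the number listed), 1 point per gene, red where higher, blue where lower and grey where not past both limits. Tnf at 2.79, Casp12 at 2.67 and Panx1 at 2.27 lie farthest to the right and Nlrp6 at −1.17 farthest to the left.

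Markers of other cells moved with the diet too. All 8 leukocyte and macrophage markers (Ptprc, Csf1r, Adgre1, Cd68, Fcgr1, Lyz2, Laptm5 and Itgb2) rose, and their summed level was 141 to 404 CPM in control and 1185 to 2741 CPM in MCD livers. Lyz2 made up much of it, at 83.4 ± 31.9 and 1142 ± 332 CPM. All 8 markers of monocyte-derived macrophages rose (summed 47.7 to 200 against 647 to 1233 CPM), whereas 4 of 6 Kupffer cell markers fell (144 to 440 against 85.8 to 311 CPM). All 3 tested of 7 neutrophil markers rose (summed 2.42 to 7.41 against 12.7 to 36.1 CPM), with Ly6g at 0 counts in every control and 0 to 3 counts in MCD libraries. Of 7 tested lymphocyte markers 4 rose (3.42 to 11.7 against 10.6 to 23.8 CPM). All 6 cholangiocyte markers rose (30.1 to 147 against 453 to 906 CPM), and 6 of 8 stellate cell markers rose and 1 fell (214 to 576 against 711 to 1218 CPM). Spp1, at 58.7 ± 32.8 and 593 ± 148 CPM, is in both the cholangiocyte and the monocyte-derived macrophage list and made up most of both sums in MCD livers. Of 7 endothelial markers 6 fell (197 to 298 against 111 to 182 CPM), and 4 of 9 hepatocyte markers fell (83910 to 190300 against 63110 to 91130 CPM). These falls depended on scaling: with total counts alone, 3 endothelial and 1 Kupffer cell marker fell, and no hepatocyte or stellate cell marker did. The part of these changes in the results for the 10 genes was not tested, and in whole tissue a change in the number of cells of a type and a change in RNA per cell cannot be told apart.

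How the 10 genes varied with the summed leukocyte markers among livers on the same diet was measured over the 12 libraries of each diet separately, because the diets do not overlap in that level. With 3 pairs among the genes themselves, 26 relations were computed, of which 10 by Pearson's r and 3 by Spearman's rho passed an adjusted permutation p of 0.05. In MCD livers the leukocyte level went with Pycard (r = 0.889, rho = 0.685, permutation p = 0.00037 and 0.0175, adjusted 0.00542 and 0.076), Casp4 (r = 0.856, rho = 0.720, permutation p = 0.00122 and 0.0109, adjusted 0.00542 and 0.0566) and Casp1 (r = 0.817, rho = 0.636, permutation p = 0.00192 and 0.031, adjusted 0.00713 and 0.0897). Without the 2 libraries whose log2 leukocyte level was farthest from the median, MCD replicates 2 and 9, r was 0.680, 0.645 and 0.491, and none passed over the 10 libraries left (permutation, adjusted p = 0.136, 0.15 and 0.371). Mlkl (r = 0.118), Ripk3 (r = −0.274) and Gsdmd (r = 0.104) did not pass in MCD livers (permutation, adjusted p = 0.807, 0.559 and 0.807; rho = 0.077, −0.343 and −0.007).

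In control livers the leukocyte level went with Casp1 (r = 0.822, rho = 0.734, permutation p = 0.00102 and 0.009, adjusted 0.00542 and 0.0566) and Nlrp3 (r = 0.664, rho = 0.643, permutation p = 0.0182 and 0.0282, adjusted 0.0472 and 0.0897). It went inversely with Casp8 (r = −0.827, rho = −0.776, permutation p = 0.00121 and 0.00411, adjusted 0.00542 and 0.0356) and Ripk1 (r = −0.678, rho = −0.643, permutation p = 0.0161 and 0.0283, adjusted 0.0466 and 0.0897). With total counts alone the inverse relations were r = −0.413 for Casp8 and r = 0.107 for Ripk1, neither passing (permutation, adjusted p = 0.289 and 0.783). Without control replicates 9 and 1, the 2 farthest libraries on the log2 scale, r was 0.728 for Casp1, 0.706 for Nlrp3, −0.660 for Casp8 and −0.477 for Ripk1, and none passed (permutation, adjusted p = 0.136, 0.136, 0.136 and 0.371). Pycard (r = 0.488, rho = 0.503) and Casp4 (r = 0.174, rho = 0.119), which passed in MCD livers, did not pass in control livers (permutation, adjusted p = 0.218 and 0.772). Nlrp3 (r = 0.320, rho = 0.371), Casp8 (r = 0.157, rho = 0.119) and Ripk1 (r = 0.372, rho = 0.510) did not pass in MCD livers (permutation, adjusted p = 0.453, 0.788 and 0.404). The differences between the diets were not tested. Without control replicate 12 the relation of Nlrp3 did not pass (r = 0.666, permutation, adjusted p = 0.0646). On residuals of a sex-linked expression score, neither Nlrp3 (r = 0.521) nor Ripk1 (r = −0.609) passed (permutation, adjusted p = 0.184 and 0.0836).

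Between the genes themselves, Pycard went with Casp1 in both diets: r = 0.820 and rho = 0.811 in control livers (permutation p = 0.00125 and 0.00209, adjusted 0.00542 and 0.0272) and r = 0.874 and rho = 0.839 in MCD livers (permutation p = 0.0005 and 0.00115, adjusted 0.00542 and 0.0272). Leaving out the 2 libraries farthest from the median of Pycard gave r = 0.909 in control livers (permutation, adjusted p = 0.00702) and r = 0.678 in MCD livers (permutation, adjusted p = 0.136). Casp1 went with Casp4 in MCD livers (r = 0.740, rho = 0.615, permutation p = 0.00786 and 0.0382, adjusted 0.0255 and 0.0992), but not without the 2 farthest libraries, where r was 0.399 (permutation, adjusted p = 0.415). In control livers Casp1 and Casp4 gave r = 0.360 (rho = 0.336, permutation, adjusted p = 0.413). Ripk3 and Mlkl, which act in the same complex, gave r = −0.048 in control and r = 0.446 in MCD livers (rho = 0.007 and 0.448, permutation, adjusted p = 0.884 and 0.271).

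**Figure D5:**
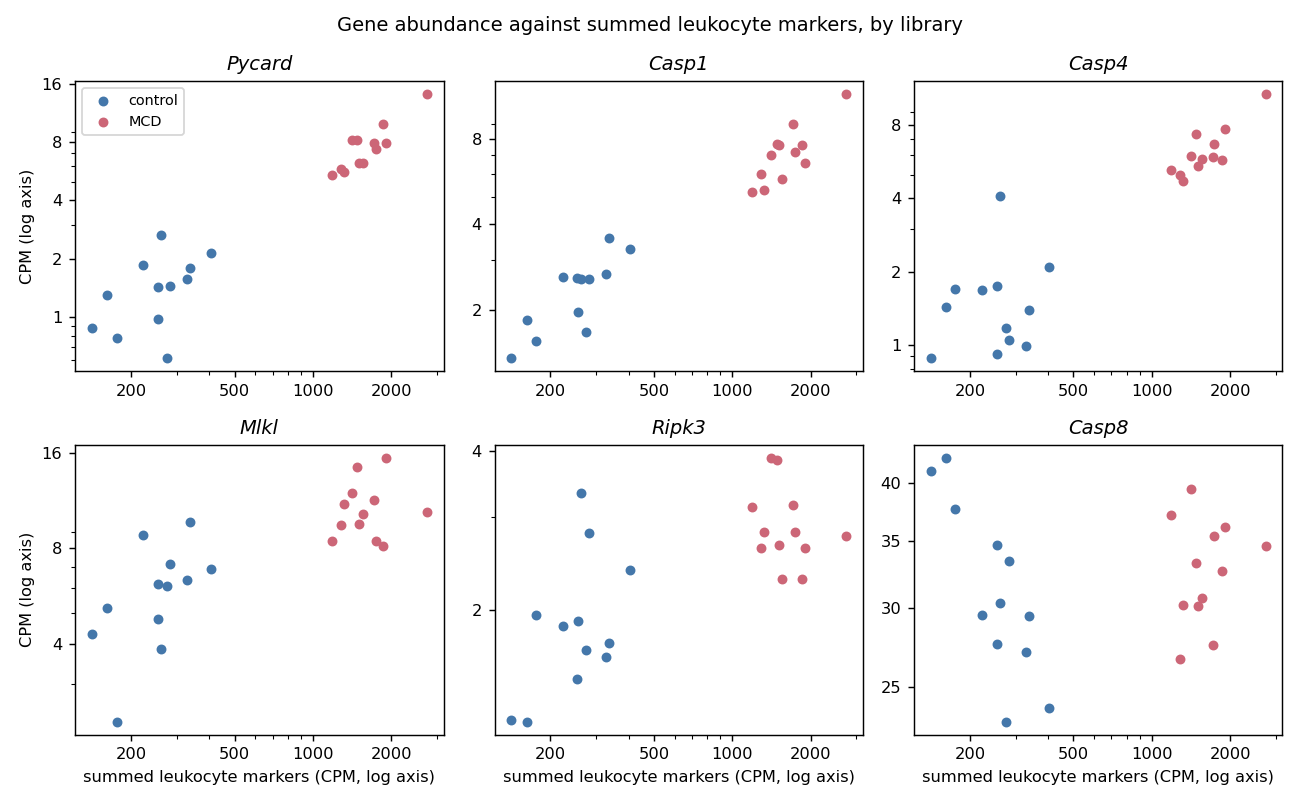
CPM of 6 of the genes (vertical, log axes) against the summed CPM of 8 leukocyte and macrophage markers (horizontal, log axes), 1 point per library, control in blue and MCD in red. The diets form separate clusters along the horizontal axis, at 141 to 404 and 1185 to 2741 CPM, and the rightmost point, MCD replicate 2, is also the highest for Pycard, Casp1 and Casp4.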

How the data were processed

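Poly(A) RNA from 24 whole mouse livers was sequenced, and the deposited values are raw read counts per Ensembl gene, which the authors did not normalize or filter (28652 of 56205 rows are 0 in every library). The submitters' processing notes name bcl2fastq, STAR 2.7.3a and mm10. The study's methods name a stranded mRNA kit for RNA-seq, and the exon quantification pipeline and PISCES for reads aligned to the human genome; for the mouse libraries the counting program, annotation release and use of strand in counting are not given in the sources used here. All columns matched a sample title, and 0 were left unused. Depth per library was 16388650 to 24915175 counts, which limits the precision of genes with few counts.

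Symbols, exons and coordinates (GRCm38, the same build as mm10) came from a GENCODE mouse annotation, which named 51745 rows, and promoters from RefSeq. Genes were kept with filterByExpr by diet (14109), scaled with TMM factors and tested with edgeR 4.0.16 (glmQLFit, glmQLFTest) in R 4.3.3, MCD against control, with no covariate. Past the threshold means a Benjamini-Hochberg FDR of 0.01 or less over all tested genes with a log2 fold change beyond 0.5 in either direction. The biological coefficient of variation was 26.8%. CPM was computed on TMM-scaled sizes, with a prior count of 2 on the log2 scale. Ratios used a prior count of 0.5, and permutation tests 100000 resamples (scipy 1.17.1, numpy 2.4.6, Python 3.11.15). Alternatives were DESeq2 1.42.0, limma-voom (limma 3.58.1), other scalings, filters and limits, a replicate block, a covariate for sex-linked expression, and each library left out. The fits were also run on simulated counts with few changed genes, up and down at random, which did not test the choice of scaling. Figures were drawn with matplotlib 3.10.9.

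The genes, lists, tests and limits were chosen with earlier results of these data known. Named pathway genes are the 4 highest and 2 lowest log2 fold changes past the threshold in each list, and all tested genes of lists with up to 4. One named gene that fell is counted but not reported here. The libraries came from separate mice. No 2 libraries of a diet agreed within counting noise (lowest dispersion index 11.4).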

Additional observations from a re-analysis of the deposited data

How the results depend on the processing

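The directions of all 10 genes held under the alternatives run. Over all genes, 4539 were higher with total counts alone and 1801 with at least 10 counts in every library, and 1710 were lower with upper-quartile factors, 848 with total counts alone, 5221 at an FDR of 0.05 with no fold limit and 686 at a log2 limit of 1. The share higher among changed genes was 50.2% with TMM, 65.6% with upper-quartile factors, 84.3% with total counts and 60.3% with DESeq2. Of the 10 genes, 3 were higher at a log2 limit of 1, beside 1862 of the 14109 genes tested. Only Ripk1 was lower at an FDR of 0.05 with no fold limit, beside 5221 of 14109. Of the 74 tested pathway genes, 40 were higher and 2 lower with total counts alone, beside 4539 and 848 of all 14109. At a log2 limit of 1 these were 12 and 1, beside 1862 and 686. At an FDR of 0.05 with no fold limit 18 were lower, beside 5221. Only 1 relation within a diet passed without the 2 farthest libraries. With at least 10 counts in every library Nlrp3 had no value. The causes were not tested.

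Leaving out 1 library at a time gave 2701 to 3052 genes higher and 2228 to 2812 lower, 5 to 6 of the 10 genes higher and 0 lower, 22 to 26 pathway genes higher and 5 to 6 lower, and log2 ratio differences of 0.97 to 1.145 for Ripk3 to Ripk1, 0.70 to 0.92 for Mlkl to Casp8, 0.38 to 0.57 for Casp4 to Casp1 and −0.25 to −0.14 for Gsdme to Gsdmd. Without control replicate 12, an alternative chosen after seeing the data, 9 relations passed, and on residuals of the sex-linked score 8.

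The labels give no reason why the diets share replicate numbers, and the numbers were not taken as pairs, since not every same-numbered pair had deviations correlated above 0.1: 8 of 12 did (−0.28 to 0.349, median 0.233, against −0.0592 for other pairs), and 2 control and 1 MCD library correlated best with their own number. With a replicate block, 2781 genes were higher and 2430 lower, Nlrp3 passed (FDR = 0.00932 by edgeR), and the difference of 0.45 in Casp4 to Casp1 did not (sign-flip permutation, adjusted p = 0.0521).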

Other observations

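After each diet's mean was subtracted, the genes whose log2 CPM over the 24 libraries was most like that of each gene were found among 13104 genes of at least 1 CPM, as a description without a test; the libraries share depth and scaling. For Pycard these were Cd300c2 (r = 0.891), Cyba (0.884), a subunit of the phagocyte oxidase, and Tyrobp (0.880), a myeloid signalling adaptor. For Casp1 they were Fcer1g (0.876), an Fc receptor chain, the lysosomal protease gene Ctss (0.861) and Cd300c2 (0.849). Nlrp3 was most like Csf2ra (0.798), Pilra (0.796) and Nod1 (0.795), and Mlkl most like Ms4a6b (0.819), Cd276 (0.781) and Naip2 (0.762).

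The other genes had different nearest genes. Casp4 was most like Mcrs1 (0.859), Fam89b (0.851) and Saal1 (0.823), Gsdmd most like Zbtb48 (0.882), the immunoproteasome gene Psmb8 (0.878) and Zfpl1 (0.866), and Casp8 most like Arl6ip1 (0.887), Ugt2b1 (0.863), a glucuronosyltransferase, and Lama3 (0.847). The values were lower for Ripk1, led by Mfap1b (0.760), for Ripk3, led by Rpap3 (0.734), and for Gsdme, led by Atp5s (0.654). Without control replicate 12, an alternative chosen after seeing the data, the nearest gene changed for Nlrp3 (Gm8995, 0.824), Casp8 (Susd4, 0.900), Ripk1 (BC021767, 0.745) and Gsdme (Ube2e2, 0.652). Over the same 23 libraries Mcrs1 was at 0.733 for Casp4, whose nearest gene was then Irf5 (0.783), Zbtb48 at 0.780 for Gsdmd and Rpap3 at 0.608 for Ripk3, whose nearest gene was then Clec4a1 (0.666). Cd300c2 (0.907), Fcer1g (0.907) and Ms4a6b (0.805) were still the nearest genes of Pycard, Casp1 and Mlkl.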
